A study of Sus scrofa with 8 samples.

Results

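The genes described here encode the proteins that release calcium from the sarcoplasmic reticulum of a muscle fibre and pump it back. They are the 10 rows of the deposited gene table whose gene name is RYR1, CACNA1S, JPH1, CASQ1, CASQ2, ATP2A1, ATP2A2, SLN, PLN or PVALB, out of 23235 genes in all, and each name matched a single row. The animals were weaned piglets, 28 days old, of the cross Duroc x Landrace x Yorkshire, randomised at 6 per group, and the RNA came from a back muscle, the longissimus dorsi. After 5 days of adaptation, all animals received 10 mL by gavage every morning for 23 days on the same basal diet. The control group was given sterile saline, and the melatonin group was given 5 mg per kg body weight of melatonin, the pineal hormone that signals darkness, in the same vehicle. The 8 libraries analysed, 4 control and 4 melatonin, held between 53471667 and 60629098 counts each.

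Contraction begins when an action potential runs down the transverse tubule and moves CACNA1S, the voltage-sensing subunit of the L-type calcium channel. CACNA1S is coupled mechanically to RYR1, the release channel of the sarcoplasmic reticulum, across a junction that JPH1 (junctophilin) holds together. Calcium stored on calsequestrin (CASQ1 and CASQ2) flows out and is returned by the SERCA pumps, which ATP2A1 and ATP2A2 encode. SLN (sarcolipin) and PLN (phospholamban) are small membrane proteins that inhibit these pumps, and PVALB (parvalbumin) is a soluble buffer that speeds relaxation. ATP2A1, CASQ1 and PVALB are classed here as fast-type, since fast fibres carry most of them. ATP2A2, CASQ2 and PLN are classed as slow-type and are also the forms of the heart. RYR1, CACNA1S, JPH1 and SLN were not typed. RYR1 is well known in pig breeding as the gene of porcine stress syndrome.

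The libraries had the makeup of a mainly fast muscle. The summed level of 7 fast fibre genes (MYH1, MYH2, MYH4, MYL1, TNNC2, TNNI2 and TNNT3) was 33100 to 39285 FPKM in controls and 29194 to 38962 FPKM after melatonin, where FPKM is a level scaled to transcript length and library size. The sum of 6 slow fibre genes (MYH7, MYL2, MYL3, TNNC1, TNNI1 and TNNT1) was 2163 to 10112 and 664 to 6164 FPKM. Of 5 cardiac genes, NPPA was at 0 in every library except control replicate 2, which had 4 counts, and RYR2 was at 0 only in melatonin replicate 4. MYH6 (11.0 to 231 FPKM), TNNT2 (2.59 to 12.1 FPKM) and TNNI3 (0.365 to 2.84 FPKM) were above 0 in all libraries. TNNT2 had a log2 fold change, melatonin against control, of -1.27 (edgeR adjusted p = 0.440). Melatonin replicates 1 and 3 stood apart in connective tissue: COL1A1, COL3A1, DCN and PDGFRA summed to 4870 and 1595 FPKM there, 532 and 519 FPKM in melatonin replicates 2 and 4, and 371 to 738 FPKM in controls. COL3A1 in melatonin replicate 3 (361 FPKM) lay inside the control range (208 to 443 FPKM). The adipocyte sum (ADIPOQ, PLIN1, FABP4 and LEP) was also highest in melatonin replicates 1 and 3. It was 203 and 189 FPKM there, against 21.2 to 119 FPKM in controls. The macrophage sum (CD68, CD163 and CSF1R) was 14.2 and 14.0 FPKM there, against 4.30 to 9.29 FPKM in controls. CD68 in melatonin replicate 3 (3.20 FPKM) lay inside the control range (1.93 to 3.99 FPKM), and in melatonin replicate 1 (4.14 FPKM) it was just above it. The labels number the libraries within a group and do not state that each is a separate animal, so p-values measure only the spread between these libraries, which may be technical. In bulk RNA, fewer slow fibres and less slow-type RNA per fibre cannot be told apart.

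No member passed the test between the groups. At an adjusted p under 0.05, edgeR's quasi-likelihood test called 0 of the 10 members, beside 0% of the 9821 genes tested. At an unadjusted p under 0.05 it also gave 0 members, beside 10.5% of all genes, of which 6.67% were higher and 3.84% lower after melatonin. DESeq2 called 0 members at its adjusted threshold, beside 0.662% of all genes, and its unadjusted p for CASQ2 was 0.0505. All 10 members had FPKM values that overlapped between the groups, while 2.2% of all genes tested did not. Log2 fold changes of melatonin over control ran from -1.02 to 0.24, with a median of -0.10 beside -0.0014 over all genes tested. By type, the medians were -0.09 for the 3 fast-type members, -0.94 for the 3 slow-type and -0.02 for the 4 not typed. All 3 slow-type members lay below control, although ATP2A2 lay above it without control replicate 1 (0.17), and 2 of the 3 fast-type did. The members were listed with earlier results of these data known, so these directions were not tested as a group.

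**Figure D1:**
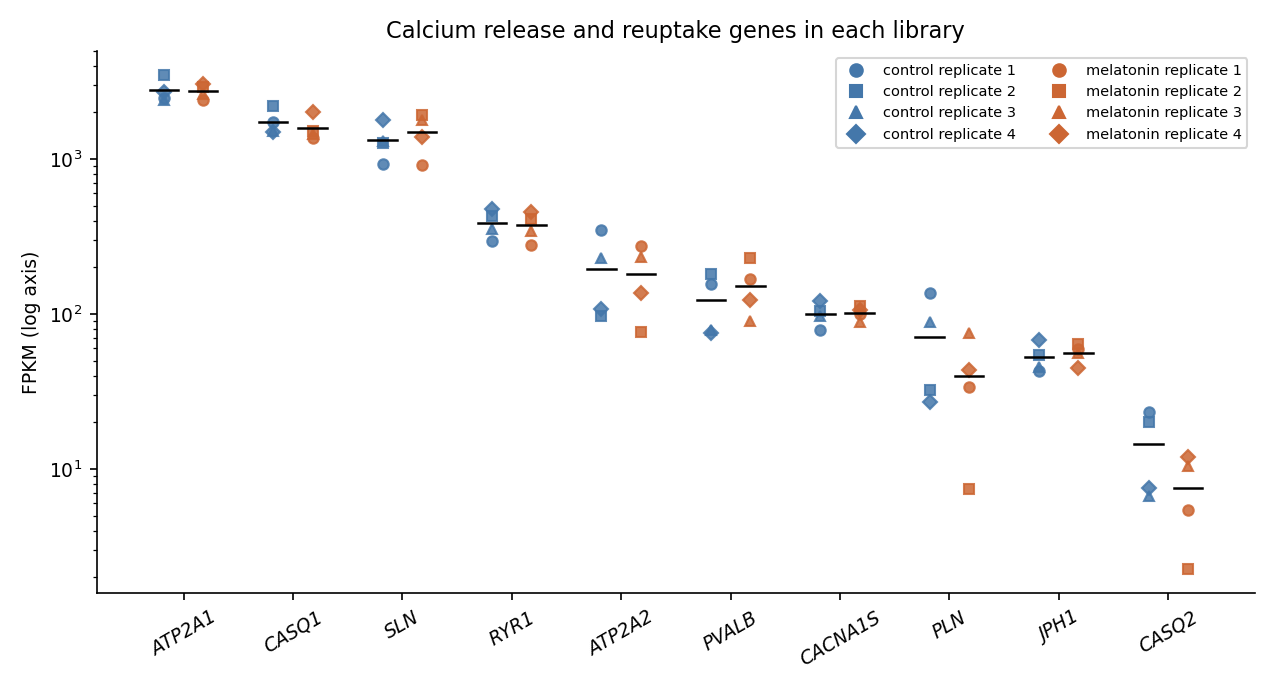
FPKM of each of the 10 genes (log axis) in 4 control and 4 melatonin libraries, with a symbol for each replicate number and a line at the group mean. Genes are in order of their mean level, from ATP2A1 at 2760 FPKM to CASQ2 at 11.0 FPKM, and the points of ATP2A2, PLN and CASQ2 spread widest within both groups.

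Per length of transcript, the fast-type pump ranked first and the slow-type calsequestrin last. Mean FPKM over the 8 libraries was 2760 for ATP2A1, 1662 for CASQ1, 1410 for SLN, 381 for RYR1 and 188 for ATP2A2. It was 138 for PVALB, 101 for CACNA1S, 55.8 for PLN, 54.4 for JPH1 and 11.0 for CASQ2. Among neighbours in this order, the ranges over libraries were separate between ATP2A1 and CASQ1, between SLN and RYR1 and between JPH1 and CASQ2. The other 6 neighbouring pairs overlapped. ATP2A1 ranked 17 among the 9821 genes tested and CASQ2 ranked 2260. The lowest count of any member was 278, for CASQ2 in melatonin replicate 2, where the counting error alone is 6.00%. For the gene with the next lowest count, PLN, that minimum was 339 (5.43%). Both errors are far below the spread between libraries given next.

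The members differed in how much they varied within a group. The within-group SD of log2(FPKM + 1) was 1.24 for PLN, 0.89 for CASQ2 and 0.85 for ATP2A2, at percentiles 99.4, 98.3 and 98.1 of all genes tested. It was 0.61 for PVALB (percentile 94.5) and 0.43 for SLN (percentile 85.8). It was 0.30 for RYR1, 0.26 for JPH1, 0.25 for CASQ1, 0.20 for CACNA1S and 0.20 for ATP2A1, from percentile 28.1 to 63.8. From the lowest to the highest library, PLN spanned 18.6-fold, CASQ2 10.3-fold and ATP2A2 4.55-fold. The same span was 3.05-fold for PVALB, 2.09-fold for SLN and 1.45-fold to 1.70-fold for the other 5 members.

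RYR1, the release channel (ENSSSCG00000058790, Sscrofa11.1 chromosome 6, 47343768 to 47458458, plus strand), measured 297, 427, 354 and 476 FPKM in the controls, in order of replicate number, and 281, 413, 345 and 453 FPKM after melatonin in the same order, which is kept below. The groups overlapped almost wholly, and within each group replicates 2 and 4 were the higher pair. The group means were 388 ± 79.0 and 373 ± 76.2 FPKM (SD, n = 4 each), and the log2 fold change was -0.10 ± 0.31 (SE, edgeR adjusted p = 0.911), with a 95% interval from -0.79 to 0.58. CACNA1S, the voltage sensor (ENSSSCG00000024784, chromosome 10, 23502898 to 23568058, minus strand), measured 79.3, 104, 97.4 and 121 FPKM in controls and 99.8, 112, 89.5 and 106 FPKM after melatonin. Its control values enclosed all melatonin values, and replicates 2 and 4 were again the higher pair of each group. The log2 fold change was -0.04 ± 0.22 (edgeR adjusted p = 0.955), and it changed sign when computed from FPKM (0.032), so no direction is given for it.

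JPH1, the junction protein (ENSSSCG00000006174, chromosome 4, 61628299 to 61716544, plus strand), measured 42.8, 54.3, 45.2 and 68.1 FPKM in controls and 59.5, 63.8, 56.4 and 44.8 FPKM after melatonin. The lowest and the highest value were both control libraries. Its log2 fold change was 0.0094 ± 0.20, the nearest to 0 of the 10 members (edgeR adjusted p = 0.988), with a 95% interval from -0.43 to 0.45. After division by the TMM library factors that edgeR used, RYR1 ranged from 237 to 351 in replicates 1 and 3 of both groups and from 448 to 524 in replicates 2 and 4. CACNA1S ranged from 75.5 to 96.5 and from 119 to 122, and JPH1 from 42.0 to 50.2 and from 51.7 to 69.2. All 3 genes were therefore higher in the same 4 libraries on this scale. JPH1 was not split in this way as FPKM, where melatonin replicate 4 (44.8) lay below melatonin replicates 1 and 3 (59.5 and 56.4). Division by the factors lowered melatonin replicates 1 and 3 (both 1.185) and raised melatonin replicates 2 (0.923) and 4 (0.866). Among controls it raised replicate 2 (0.851) and left the rest nearly unchanged (1.01 to 1.02). The split of JPH1 thus depends on the scaling. The labels give the replicate numbers no meaning beyond a name, and the split of the 3 genes was seen in the values and not tested.

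CASQ1, the fast-type store protein (ENSSSCG00000006390, chromosome 4, 90276757 to 90288250, minus strand), measured 1729, 2212, 1517 and 1486 FPKM in controls and 1373, 1522, 1454 and 2007 FPKM after melatonin. Control replicate 2 and melatonin replicate 4 were the high libraries, and the groups overlapped. The log2 fold change was -0.19 ± 0.29 (edgeR adjusted p = 0.819). CASQ2, the slow-type and cardiac store protein (ENSSSCG00000061647, chromosome 4, 104918501 to 104983607, plus strand), measured 23.3, 20.003, 6.66 and 7.58 FPKM in controls and 5.43, 2.27, 10.5 and 12.0 FPKM after melatonin. Control replicates 1 and 2 were above every other library and melatonin replicate 2 was the lowest, while control replicates 3 and 4 lay within the melatonin range. The means were 14.4 ± 8.52 and 7.54 ± 4.50 FPKM (SD, n = 4 each), and the log2 fold change was -1.02 ± 0.57 (edgeR adjusted p = 0.534) and a 95% interval from -2.31 to 0.26. CASQ2 had the smallest unadjusted p of the members, 0.106 in edgeR, and without melatonin replicate 4 its log2 fold change was -1.51 (edgeR unadjusted p = 0.0295, adjusted p = 0.209), a setting in which 19.2% of all genes tested had an unadjusted p under 0.05.

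ATP2A1, the fast-type pump (ENSSSCG00000007805, chromosome 3, 18547976 to 18568309, plus strand), measured 2495, 3468, 2409 and 2723 FPKM in controls and 2395, 2938, 2613 and 3042 FPKM after melatonin. Its highest value was in control replicate 2 and its lowest in melatonin replicate 1, with full overlap of the other libraries. The means were 2774 ± 481 and 2747 ± 297 FPKM (SD, n = 4 each), and the log2 fold change was -0.09 ± 0.29 (edgeR adjusted p = 0.924) and a 95% interval from -0.73 to 0.56. ATP2A2, the slow-type pump, which most other cells also use (ENSSSCG00000034386, chromosome 14, 31674757 to 31744969, plus strand), measured 347, 97.8, 231 and 107 FPKM in controls and 274, 76.3, 233 and 137 FPKM after melatonin. In both groups replicates 1 and 3 were high and replicates 2 and 4 low, and the 8 values left a gap between 137 and 231 FPKM. The means were 196 ± 118 and 180 ± 89.9 FPKM (SD, n = 4 each), and the log2 fold change was -0.24 ± 0.43 (edgeR adjusted p = 0.848), which was -0.08 when computed from FPKM. The 4 libraries lowest in ATP2A2 were the 4 highest in ATP2A1: divided by the TMM factors, ATP2A1 ranged from 2022 to 2452 in replicates 1 and 3 and from 2668 to 4076 in replicates 2 and 4, where ATP2A2 ranged from 197 to 341 and from 82.7 to 158.

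SLN, the inhibitor that has been linked to heat production in muscle (ENSSSCG00000029651, chromosome 9, 36232968 to 36242405, minus strand), measured 927, 1272, 1307 and 1778 FPKM in controls and 920, 1923, 1775 and 1382 FPKM after melatonin. The lowest 2 libraries were replicate 1 of each group, and the groups overlapped. The log2 fold change was 0.13 ± 0.31 (edgeR adjusted p = 0.893), with a 95% interval from -0.56 to 0.81. PLN, the inhibitor of slow muscle and heart (ENSSSCG00000062089, chromosome 1, 43449354 to 43458925, minus strand), measured 138, 32.2, 89.0 and 27.0 FPKM in controls and 34.0, 7.42, 75.0 and 43.6 FPKM after melatonin. Control replicate 1 was the highest library and melatonin replicate 2 the lowest, while the other 3 melatonin libraries lay inside the control range. The means were 71.5 ± 52.3 and 40.0 ± 27.9 FPKM (SD, n = 4 each), and the log2 fold change was -0.94 ± 0.63 (edgeR adjusted p = 0.587) and a 95% interval from -2.36 to 0.48. PLN overlaps CEP85L (mean 4.82 FPKM) on the opposite strand, and no source used here states whether strand was used in counting.

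PVALB, the fast-type buffer (ENSSSCG00000000138, chromosome 5, 10955491 to 10973289, plus strand), measured 155, 180, 79.3 and 75.0 FPKM in controls and 168, 228, 90.4 and 124 FPKM after melatonin. Melatonin replicate 2 was the highest library, and replicates 1 and 2 were the higher pair in both groups. The means were 122 ± 53.3 and 153 ± 59.7 FPKM (SD, n = 4 each), and the log2 fold change was 0.24 ± 0.41 (edgeR adjusted p = 0.844) and a 95% interval from -0.68 to 1.15. PVALB therefore did not share the split by replicate number seen for ATP2A1 and RYR1. It overlaps NCF4 (mean 0.473 FPKM), and ATP2A1 overlaps RABEP2 (mean 1.63 FPKM), each on the opposite strand.

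**Figure D2:**
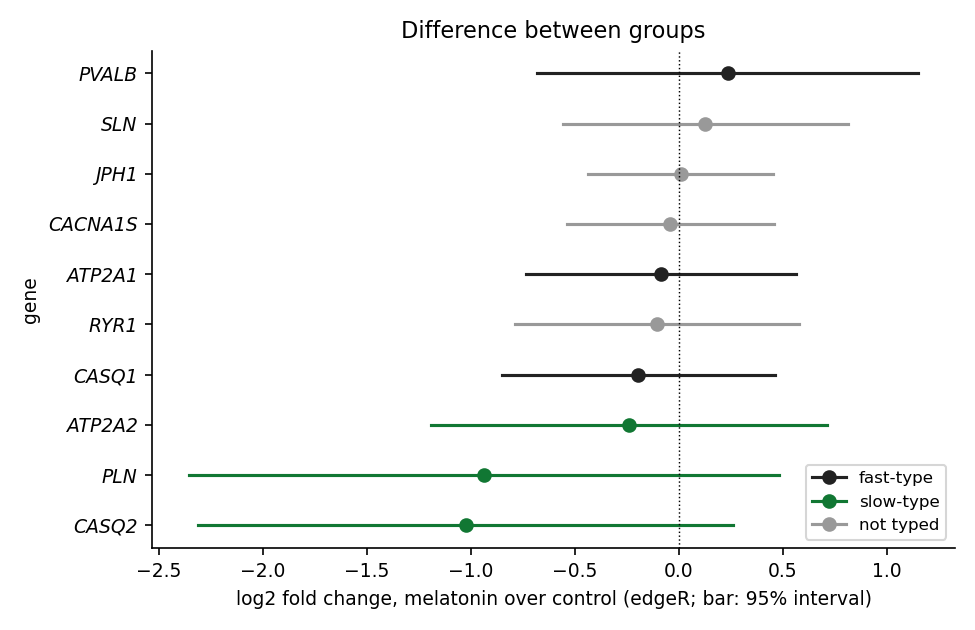
Log2 fold change of melatonin over control from edgeR for the 10 genes (points), with 95% intervals (bars) and colour for the fast-type, slow-type and other genes. All 10 intervals include 0, and those of PLN and CASQ2 are the widest, from -2.36 to 0.48 and from -2.31 to 0.26.

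Fast-type and slow-type partners were then set against each other within each library, where library scaling cancels. ATP2A2 made up 12.2, 2.74, 8.76 and 3.79% of the summed FPKM of ATP2A1 and ATP2A2 in the controls, and 10.3, 2.53, 8.19 and 4.30% after melatonin. The same-numbered libraries of the groups thus had similar pump makeup, and the fast-type pump exceeded the slow-type by 7.18-fold to 38.5-fold. The log2 ratio of ATP2A1 to ATP2A2 was 4.01 ± 1.08 in controls and 4.09 ± 0.97 after melatonin (SD, n = 4 each, two-sided exact permutation p = 0.886). CASQ2 made up 1.33, 0.896, 0.437 and 0.507% of the 2 calsequestrins in controls and 0.394, 0.149, 0.715 and 0.594% after melatonin. Its share was below 1.4% in all libraries and lowest in melatonin replicate 2. The log2 ratio of CASQ1 to CASQ2 was 7.11 ± 0.75 and 7.97 ± 1.01 (SD, n = 4 each, two-sided exact permutation p = 0.257).

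Of the 2 pump inhibitors, PLN made up 12.9, 2.47, 6.38 and 1.495% of the summed FPKM in controls and 3.57, 0.385, 4.05 and 3.06% after melatonin. Control replicate 1 was highest and melatonin replicate 2 lowest, as for ATP2A2 and CASQ2. The log2 ratio of SLN to PLN was 4.49 ± 1.47 and 5.58 ± 1.63 (SD, n = 4 each, two-sided exact permutation p = 0.400). Adjusted over the 3 ratios, exact permutation p was 0.886 for the pumps and 0.600 for the calsequestrins and the inhibitors, and the smallest p these libraries allow is 0.0286. None of the ratios differed beyond the spread between libraries. ATP2A1 and ATP2A2, and likewise CASQ1 and CASQ2, are related in sequence, so part of the reads of the lower gene may come from the higher one. The size of that part was not measured, and CASQ1 was 74.1-fold to 671-fold above CASQ2.

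**Figure D3:**
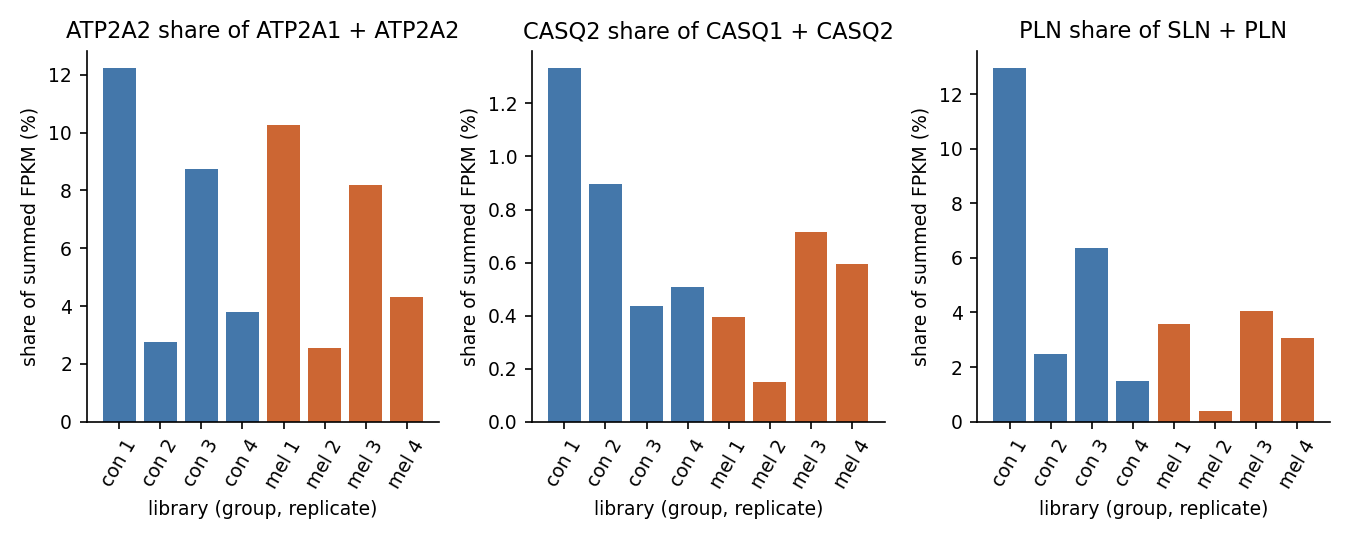
Share (%) of ATP2A2 in ATP2A1 plus ATP2A2, of CASQ2 in CASQ1 plus CASQ2 and of PLN in SLN plus PLN, as summed FPKM, with 1 bar per library and colour for the group. The ATP2A2 share repeats the order of replicates 1 to 4 in both groups, from 12.2% down to 2.53%, and the other 2 shares do not.

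PLN was also set against the pump it restrains, as a description. The FPKM ratio of PLN to ATP2A2 was 0.396, 0.330, 0.385 and 0.251 in controls. After melatonin it was 0.124, 0.0972, 0.322 and 0.319. Melatonin replicates 1 and 2 were below all controls, while replicates 3 and 4 lay inside the control range. In melatonin replicate 1, ATP2A2 was at 274 FPKM, the second highest of the libraries, with PLN at 34.0 FPKM. That library also had the highest connective tissue (4870 FPKM), adipocyte (203 FPKM) and macrophage (14.2 FPKM) sums. Its smooth muscle sum (ACTA2, MYH11, TAGLN and CNN1) was the highest too, at 103 FPKM against 51.5 to 92.2 in controls. There TAGLN (33.9 FPKM, controls 11.0 to 13.9) and MYH11 (1.83 FPKM, controls 0.562 to 1.29) were above their control ranges. ACTA2 (27.3 FPKM, controls 17.4 to 27.8) and CNN1 (39.9 FPKM, controls 16.4 to 51.1) lay inside theirs. The part of these sums in the ratio was not tested.

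The spread between libraries was compared with fibre makeup. A slow contractile index was taken as the mean log2(FPKM + 1) of MYH7, MYL2, MYL3, TNNC1, TNNI1 and TNNT1, none of which is a member. It was 10.4, 8.20, 9.69 and 8.76 in controls and 9.48, 6.49, 9.68 and 8.72 after melatonin. Melatonin replicate 2 was the lowest of the 8 libraries. The 6 genes spanned 12.7-fold to 19.9-fold between libraries and had a median log2 fold change of -0.59, with 0 at an unadjusted p under 0.05. ATP2A2 followed the index with Pearson's r = 0.92 (n = 8, exact permutation p = 0.000397) and Spearman's rho = 0.88 (exact permutation p = 0.00724). PLN followed it with r = 0.94 (n = 8, exact permutation p = 0.00117) and rho = 0.88 (exact permutation p = 0.00724). Adjusted over the 10 members, exact permutation p was 0.00397 for ATP2A2 and 0.00583 for PLN by Pearson's r, and 0.0362 for both by Spearman's rho.

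Without control replicate 1 and melatonin replicate 2, the libraries farthest from the median index, r was 0.94 for ATP2A2 and 0.72 for PLN (n = 6). Without melatonin replicate 2 alone, the relation of ATP2A2 still passed (r = 0.95, adjusted exact permutation p = 0.0238) and that of PLN did not (r = 0.85, adjusted exact permutation p = 0.065). No other single library was left out for these relations. With 4 libraries per group, no relation was computed within a group. With each group's mean taken away first, ATP2A2 (r = 0.94) and PLN (r = 0.94) passed, as in the pooled values.

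CASQ2, although slow-type, did not pass: r was 0.57 (n = 8, exact permutation p = 0.141, adjusted p = 0.196), and rho was 0.29 (exact permutation p = 0.501, adjusted p = 0.501). Without the 2 farthest libraries its r was -0.73, so its positive sign rests on those libraries. The other 7 members had negative r, from -0.72 for CACNA1S to -0.16 for CASQ1. None passed (lowest adjusted exact permutation p = 0.157 by r and 0.0726 by rho). Without the 2 farthest libraries, r was -0.82 for CASQ1 and -0.75 for RYR1. It was -0.43 for PVALB, -0.11 for JPH1 and -0.07 for SLN, so the order of these members depends on the 2 libraries. For CACNA1S the unadjusted exact permutation p was 0.0470 by r and 0.0218 by rho, and r was -0.65 without the 2 farthest libraries. For JPH1, r was -0.55 (exact permutation p = 0.156, adjusted p = 0.196). On TMM-scaled log2 CPM, which adjusts for library makeup, it was -0.87 and passed (adjusted exact permutation p = 0.00124). The same TMM factors gave JPH1 its split by replicate number, so this relation also depends on the scaling. For ATP2A1, r was -0.65 (exact permutation p = 0.0771) and -0.91 without the 2 farthest libraries. Its rho was -0.76 (exact permutation p = 0.0368, adjusted p = 0.0919). For RYR1 r was -0.62 (exact permutation p = 0.0936), and for PVALB -0.50 (exact permutation p = 0.207). Differences between these correlations were not tested.

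**Figure D4:**
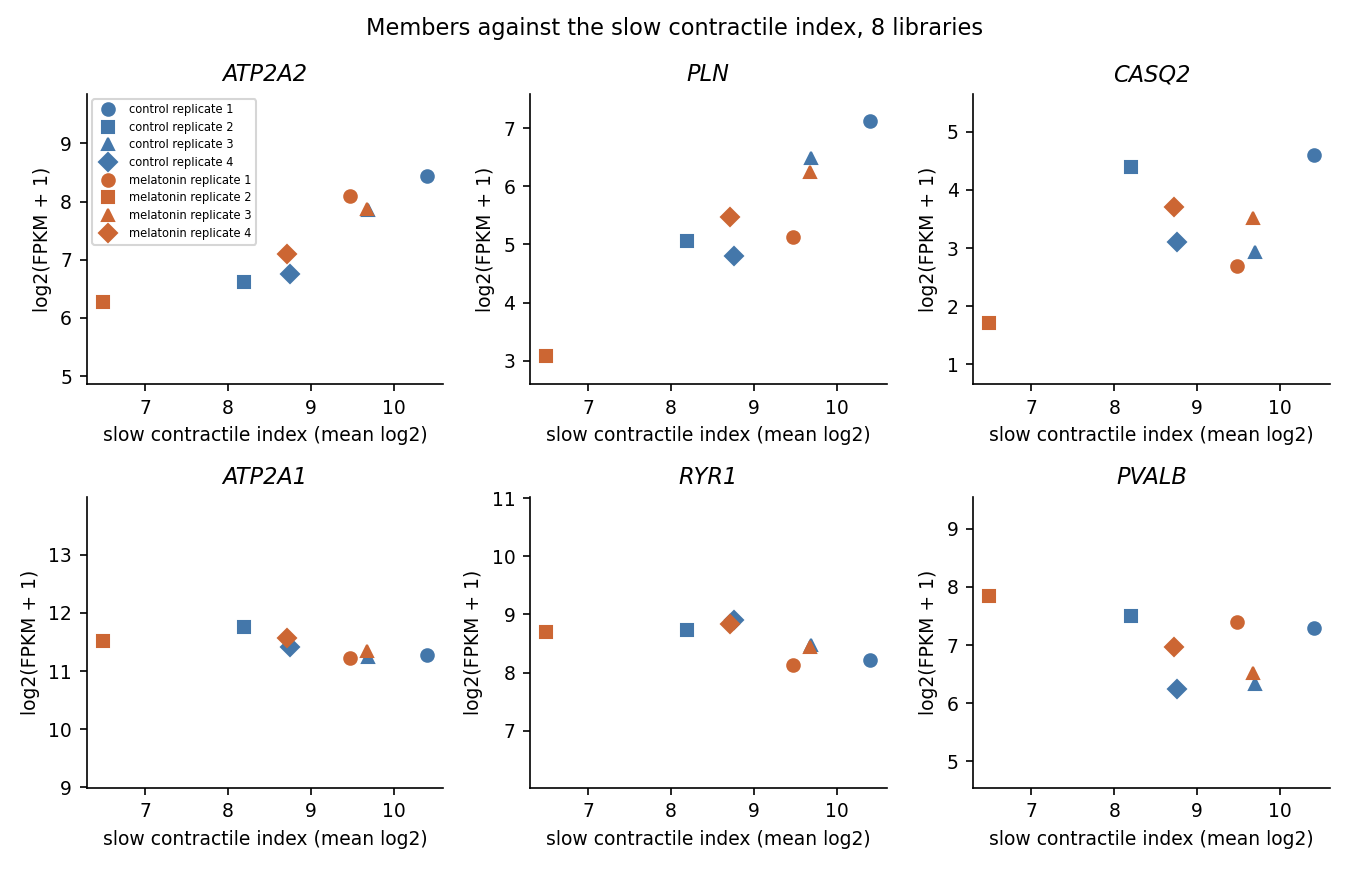
Log2(FPKM + 1) of ATP2A2, PLN, CASQ2, ATP2A1, RYR1 and PVALB against the slow contractile index in the 8 libraries, with colour for the group, a symbol for the replicate number and vertical axes of equal length. ATP2A2 and PLN rise along the index (r = 0.92 and 0.94), CASQ2 scatters (r = 0.57), and melatonin replicate 2 lies alone at an index of 6.49.

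The genes whose library pattern was most like that of 3 members were listed among 4326 other genes with a mean of at least 5 FPKM, by Pearson's r over the 8 libraries after each group's mean was taken away. For ATP2A2 they were HSPB6, a small heat shock protein (r = 0.99), MYL6B, a myosin light chain of slow muscle (r = 0.98), and ERG, an endothelial transcription factor (r = 0.98). MYL6B ran from 22.8 FPKM in melatonin replicate 2 to 1164 FPKM in control replicate 1. ERG stayed between 3.53 and 7.10 FPKM. The endothelial sum (PECAM1, CDH5, VWF and KDR) was 52.9, 36.4, 45.0 and 37.4 FPKM in controls. After melatonin it was 42.3, 35.6, 52.4 and 38.4 FPKM. As for ATP2A2, replicates 1 and 3 were the higher pair of both groups in this sum and in PECAM1 (20.5, 14.2, 25.0 and 16.6 FPKM after melatonin). The other genes of the sum did not keep this order after melatonin. Replicate 1 was the lowest melatonin library for CDH5 (11.5 FPKM) and KDR (4.23 FPKM), and replicate 3 was the lowest for VWF (3.13 FPKM). The part of endothelial RNA in the spread of ATP2A2 was not tested. For CASQ2 they were URM1 (r = 0.96), EPRS1 (r = 0.95) and AMZ2 (r = 0.93), none of which is a contractile gene. For PVALB they included CACNG1, the gamma subunit of the muscle calcium channel (r = 0.91), and HIVEP2 (r = 0.84). These values describe likeness over 8 libraries that share their depth and makeup, picked as the highest of many.

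The wider calcium handling machinery was taken from a list of 69 genes, of which 67 were matched in the table and 59 passed the filter on low levels. Of these 59, 22 lay above control and 37 below, with a median log2 fold change of -0.10, while 4928 of all 9821 genes tested lay below. Directions within the groups of this list were not tested. At an unadjusted p under 0.05, 6 differed in edgeR, 4 higher and 2 lower, which is 10.2% beside 10.5% of all genes, and 0 passed when adjusted over all genes in edgeR or in DESeq2. In the voltage sensor and triad group, 7 of 8 lay below control (median -0.24) and 0 reached an unadjusted p under 0.05. Without melatonin replicates 1 and 3, the libraries with the highest connective tissue, adipocyte and macrophage sums, 3 of these 8 lay below it (median 0.07). The smallest p there belonged to TRIM72, a membrane repair protein (75.1 ± 5.46 and 64.0 ± 7.51 FPKM, log2 fold change -0.29 ± 0.18), and to CAV3, the muscle caveolin (132 ± 16.0 and 106 ± 16.8 FPKM, -0.37 ± 0.23). Among 12 release channel partners and store proteins, 5 were above and 7 below control (median -0.04), and again 0 reached that p; without the same libraries 3 lay below (median 0.09). TRDN (triadin), which anchors calsequestrin to the release channel, measured 125 ± 14.1 and 152 ± 15.6 FPKM (0.22 ± 0.17), and TMEM38B, a counter-ion channel, 4.23 ± 0.483 and 5.47 ± 1.79 FPKM.

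Pumps, exchangers and pump regulators held 3 of the 6 genes, among 8 that passed the filter. This is 37.5% of a small group, beside 10.5% of all genes, and the share was not tested. SLC8A3, a sodium-calcium exchanger, measured 1.61, 2.98, 2.11 and 2.80 FPKM in controls and 2.98, 5.54, 11.0 and 3.42 FPKM after melatonin, highest in replicate 3. Its log2 fold change was 1.13 ± 0.38 (edgeR adjusted p = 0.440). ATP2C1, the calcium and manganese pump of the Golgi, measured 5.94, 5.34, 4.91 and 7.02 FPKM in controls and 8.88, 8.90, 9.90 and 6.87 FPKM after melatonin. Of its melatonin values, 3 lay above all controls, and its log2 fold change was 0.49 ± 0.14 (edgeR adjusted p = 0.440). ATP2B2, a plasma membrane calcium pump, had the opposite sign, at 4.76 ± 1.68 and 3.04 ± 0.449 FPKM (-0.70 ± 0.29, edgeR adjusted p = 0.461). STRIT1, which encodes the small protein DWORF that relieves SERCA inhibition in slow muscle and heart, was named after its values were seen because it acts on the same pump as PLN. It measured 14.5, 4.30, 13.8 and 5.79 FPKM in controls and 6.42, 2.51, 11.09 and 3.33 FPKM after melatonin (log2 fold change -0.85 ± 0.47, edgeR adjusted p = 0.534). As for ATP2A2, replicates 1 and 3 were the higher pair of both groups, and the groups overlapped.

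Mitochondrial uptake genes lay below control in 8 of 8 (median -0.23), also without melatonin replicates 1 and 3 (median -0.14), among them SMDT1, an essential subunit of the uniporter, at 39.0 ± 7.81 and 30.4 ± 5.05 FPKM (-0.43 ± 0.18, edgeR adjusted p = 0.463). SMDT1 was the 1 gene of this group with an unadjusted p under 0.05, and the shared direction was not tested. Of the store-operated entry genes, 4 passed the filter, 2 above and 2 below control. ORAI1, the entry channel, measured 26.3 ± 6.16 and 18.8 ± 3.36 FPKM (-0.52 ± 0.25), and STIM2, a store sensor, 1.15 ± 0.146 and 1.62 ± 0.283 FPKM (0.42 ± 0.21). STIM2 (edgeR adjusted p = 0.518) was the 1 gene of the 59 whose groups did not overlap, beside 2.2% of all genes tested. Among 19 calcium-dependent signalling genes, 9 were above and 10 below control (median -0.06, and 5 below without melatonin replicates 1 and 3, median 0.10), and 2 had an unadjusted p under 0.05, both higher. These were CAMKK2, a calmodulin-dependent kinase (1.40 ± 0.361 and 3.35 ± 2.55 FPKM, 1.08 ± 0.44), and NFATC2, a calcineurin-driven transcription factor (0.772 ± 0.113 and 1.63 ± 1.34 FPKM, 0.92 ± 0.41). Both were highest in melatonin replicate 1, at 6.70 and 3.62 FPKM. That library had the highest connective tissue, adipocyte and macrophage sums, whose part in these values was not tested.

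**Figure D5:**
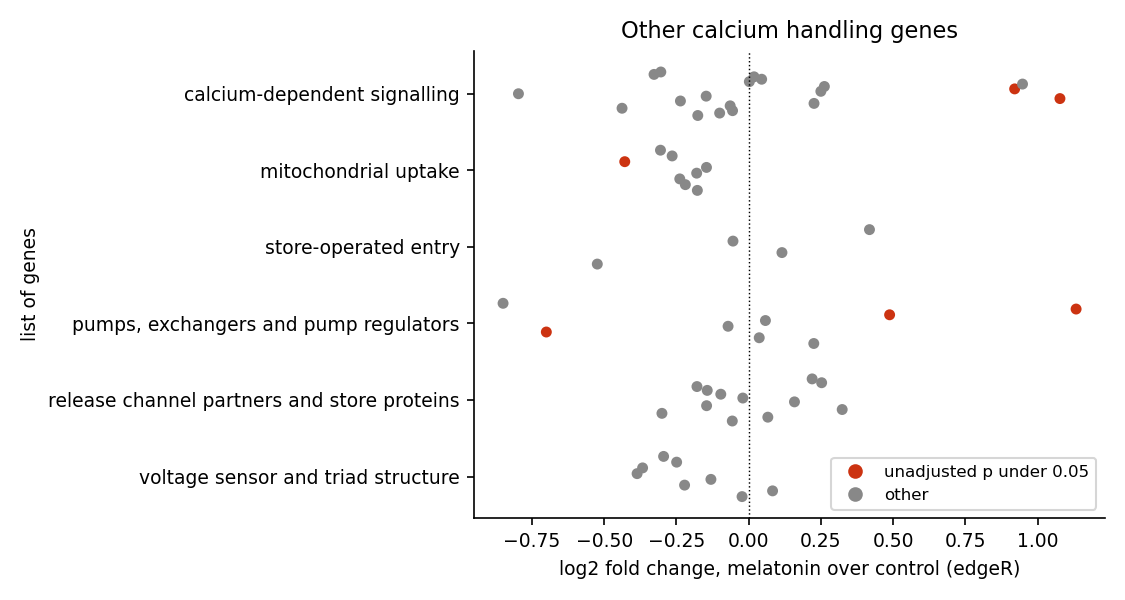
Log2 fold change of melatonin over control from edgeR for the 59 other calcium handling genes that passed the filter, 1 point per gene in 6 groups, with the 6 genes at an unadjusted p under 0.05 in red. All 8 mitochondrial uptake genes lie below 0, as do 4928 of all 9821 genes tested, and 3 of the 6 red points are pumps and exchangers. The red points are 10.2% of the 59 genes, beside 10.5% of all genes tested, and the shares of single groups were not tested.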

How the data were processed

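Per the file headers, the deposited table gives a count and an FPKM value for each gene and library, and all value columns were mapped (0 left over). The deposited counts are raw, in whole numbers, and the authors' FPKM values are scaled by transcript length and library size. Poly(A) RNA was used, with the second cDNA strand marked, per the labels' protocols. FastQC, StringTie, DESeq2 and Sscrofa11.1 are named in the submitters' processing notes, and the aligner is not given in the sources used here. Symbols were added to 128 genes from a table of gene names and to 110 from NCBI gene numbers.

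Genes with a mean of at least 1 FPKM (9821, all 10 members among them) were compared by quasi-likelihood F tests (legacy form) of edgeR 4.0.16 under R 4.3.3, after TMM scaling (factors 0.851 to 1.19), with Benjamini-Hochberg adjustment over all 9821 at 0.05. The SE is the log2 fold change divided by the root of F, and 95% intervals use the test's degrees of freedom. The common biological coefficient of variation was 28.0%. The code was tested on simulated counts. Ratios were compared by two-sided exact permutation over 70 assignments, and relations by exact permutation of pairings, with a pseudocount of 1, in Python 3.11.15 with NumPy 2.4.6. Alternatives used limma 3.58.1, DESeq2 1.42.0, other filters, scalings and subsets of libraries. The members and lists were chosen with earlier results of these data known. Named genes are the 10 members, from each list up to 3 genes with the smallest unadjusted p under 0.05 or else the 2 smallest, and the 3 nearest patterns of ATP2A2, CASQ2 and PVALB. A gene named by this rule is not reported here.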

Additional observations from a re-analysis of the deposited data

Results flagged for a closer look

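Of 26 groups of 4 values checked (10 members and 3 ratios in each group), 1 held a value far from the others. The log2 ratio of SLN to PLN in melatonin replicate 2 was 8.02, while the other 3 after melatonin lay from 4.56 to 4.98, and its gap to the nearest was 0.878 of the group's range. Chance gives about 1 such value in 20 groups. In that library SLN was at 1923 FPKM, PLN at 7.42 FPKM and the slow fibre sum at 664 FPKM.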

How the results depend on the processing

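In every setting tried, 0 of the 10 members passed the adjusted threshold, and leaving out 1 library at a time gave 0 to 1 members at an unadjusted p under 0.05 (CASQ2, without melatonin replicate 4, where 19.2% of all genes did). Over all genes, calls numbered 65 in DESeq2 and 0 to 15 with a library left out. Of the other calcium genes, 11 of 67 reached an unadjusted p under 0.05 with no filter, where 7.70% of all genes did. With a filter at a mean of 5 FPKM, which leaves fewer of them to test, 1 did, beside 10.0% of all genes. With a library left out, 2 to 13 of 59 did, beside 5.78% to 19.2% of all genes. The cause was not tested. Slow-type CASQ2 and PLN stayed below control with any library left out, from -1.51 to -0.73 and from -1.31 to -0.43. The sign changed for ATP2A2 (-0.45 to 0.17), RYR1 (-0.31 to 0.058), CACNA1S (-0.16 to 0.075), JPH1 (-0.12 to 0.12), CASQ1 (-0.43 to 0.034), ATP2A1 (-0.23 to 0.13), SLN (-0.075 to 0.34) and PVALB (-0.10 to 0.58). The log2 ratio differences ran from -0.31 to 0.46 for ATP2A1 to ATP2A2, from 0.38 to 1.14 for CASQ1 to CASQ2 and from 0.28 to 1.60 for SLN to PLN, and were 0.86, 1.28 and 2.01 without melatonin replicates 1 and 3. Without melatonin replicates 1 and 3 together, signs reversed for RYR1 (0.26), CACNA1S (0.22), CASQ1 (0.12) and ATP2A1 (0.20). They also reversed for JPH1 with no filter (-0.0079) and for CACNA1S in limma on FPKM (0.032 with either pseudocount). Without melatonin replicate 2, 1 member followed the slow index, and r for CASQ2 was -0.0027. With the replicate number as a block, 1061 genes reached an unadjusted p under 0.05, against 1032, and 0 members did. Same-numbered libraries correlated at 0.18, 0.09, 0.14 and -0.05 in their deviations, so the numbers were not taken to pair libraries, and all correlations of replicates 1 or 3 with 2 or 4 were negative (-0.22 to -0.03). The lowest count of any member was 278, a counting error of 6.00%.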

Other observations

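Of the other calcium handling genes, 8 lay below the filter on low levels, and with no filter 3 of them had an unadjusted p under 0.05 in edgeR (ITPR3, MRLN and TRPC1), beside 7.70% of all genes in that fit, none of which passed when adjusted over all genes (adjusted p = 0.515, 0.526 and 0.526). MRLN, which encodes myoregulin, a SERCA inhibitor of skeletal muscle, had 8, 13, 0 and 0 counts in control replicates and 23, 35, 88 and 25 counts after melatonin. Its groups did not overlap, beside 2.2% of the 9821 genes that passed the filter, and its highest count was in melatonin replicate 3. Its log2 fold change with no filter was 2.75 ± 1.12, a value that depends on how 0 counts are handled. ITPR3, an inositol trisphosphate receptor that releases calcium in many cell types, measured 0.576, 0.282, 0.694 and 0.570 FPKM in controls and 1.21, 0.757, 1.41 and 0.779 FPKM after melatonin (0.86 ± 0.23), highest in melatonin replicates 1 and 3, which also had the highest connective tissue, adipocyte and macrophage sums. The part of those sums in these values was not tested. MRLN and ITPR3 were named after their values were seen.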
